A study of Mus musculus with 16 samples.

Results

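Nox4, an enzyme that makes reactive oxygen species, and 9 antioxidant genes were followed in fluorescently sorted mouse lung cells with and without bleomycin injury. The 10 genes were Nox4, the superoxide dismutases Sod1, Sod2 and Sod3, the peroxide-removing enzymes Cat, Gpx1, Gpx3 and Prdx1, and the inducible enzymes Nqo1 and Hmox1. They were picked by gene symbol out of 49452 genes measured, with earlier results of these data known, and each was 1 row in every mouse's table. RNA was sequenced from tdTomato-positive cells of the left lung of 16 male mice, 4 in each of 4 groups, taken on day 14 after instillation at 11 weeks of age. Each of 2 lines, Acta2-tdT and Pdgfra-tdT, received either saline or bleomycin. All mice carried the floxed tdTomato reporter and a tamoxifen-inducible Cre, driven by Acta2 (alpha smooth muscle actin) in one line and by Pdgfra (a growth factor receptor of fibroblasts) in the other. All mice received tamoxifen. Acta2-tdT mice had it in food (400 mg/kg) from 5 days after instillation, so that cells which turned on Acta2 during injury were labelled too. Pdgfra-tdT mice had 5 injections of 3 mg at 6 weeks of age, before instillation, so that only cells which then expressed Pdgfra, and their progeny, were labelled. The lines therefore differ in promoter and in the time of labelling, and these cannot be told apart. Mice are numbered here as in the sample titles, 1 to 4 with saline and 5 to 8 with bleomycin in each line.

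Levels are FPKM, fragments per kilobase of transcript, scaled by the authors to the mapped fragments of the library, which are per length and so can be compared between genes. The summed FPKM of 21961 nuclear protein-coding genes lay between 36688 and 60947 in the saline mice of the Acta2-tdT line and between 241916 and 466183 in its bleomycin mice, and in the Pdgfra-tdT line between 29964 and 61168 and between 29727 and 147467 respectively. Because this sum differed between groups, results are given as deposited FPKM, as scaled FPKM or as both, with the scale named. Scaled FPKM is the FPKM divided by the mouse's own sum and multiplied by 1000000. Changes are differences of mean log2(value + 1), which understate the change of low genes. A gene was called at a Benjamini-Hochberg adjusted p under 0.05 by limma over all genes that reached an FPKM of 1 in 4 or more of the mice compared. A further scaling, by the median ratio of each mouse's genes to their geometric mean (median ratio scaling), is named where it changed a direction or a call in scaled FPKM. Applied to the deposited FPKM, it left Hmox1, Prdx1 and Sod2 called in Acta2-tdT bleomycin against saline, Gpx3 between the lines with saline, Gpx3 and Sod3 between them with bleomycin, and 0 of the 10 genes in the interaction. The error after ± is the standard error (SE) for a log2 change and the standard deviation (SD) over 4 mice for a level. The depth is unknown, since no counts were used. The width of the Cufflinks bounds implies, as an approximation, 348258 to 7819320 fragments on these genes per mouse, and the same figure for a single gene is given below as implied fragments. Cell type markers were checked in scaled FPKM. Acta2 was at 3675 to 6889 in Acta2-tdT mice and at 15.3 to 304.1 in Pdgfra-tdT mice. Pdgfra was at 59.2 to 100.8 in Pdgfra-tdT saline but at 16.6 to 45.7 in Pdgfra-tdT bleomycin mice, which overlapped the 10.3 to 25.5 of Acta2-tdT bleomycin mice. In deposited FPKM Pdgfra was called higher in Acta2-tdT than in Pdgfra-tdT mice with bleomycin. In the Pdgfra-tdT bleomycin mice the 12 macrophage markers summed to 14891 to 42616. The 7 fibroblast markers summed to 81.2 to 1086 there, and to 233.8 to 943.0 in Pdgfra-tdT saline mice, where the macrophage markers summed to 862.0 to 3743. Markers of other cells were present in the Acta2-tdT line too. There the macrophage markers summed to 5449 to 11999 with saline and to 10585 to 30862 with bleomycin, and 6 neutrophil markers to 19700 to 29822 and to 2637 to 17638, against 330.0 to 1560 in Pdgfra-tdT mice. The fibroblast markers summed to 595.8 to 716.9 and to 4316 to 6824 in the same order. Pdgfra-tdT saline mouse 3 and Pdgfra-tdT bleomycin mouse 5 stood apart by 7 endothelial markers, which summed to 5989 and 6560 there and to 61.2 to 1947 in the other 14 mice. In their groups these mice also had the highest protein-coding sums (61168 and 147467), implied fragments (1368580 and 2710340) and fibroblast marker sums (943.0 and 1086). The part of cell type and of depth in their levels was not tested. Other mice stood apart too. Acta2-tdT saline mouse 3 had an epithelial marker sum of 15909 and Pdgfra-tdT bleomycin mouse 8 of 7417. Pdgfra-tdT bleomycin mouse 6 had an erythroid marker sum of 4176. These are bulk samples, in which fewer cells of a type and less RNA per cell cannot be told apart.

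Reactive oxygen species are made and removed in steps, and the 10 genes cover both sides. NADPH oxidases pass electrons from NADPH to oxygen. Nox4 releases mostly hydrogen peroxide and is known for its role in myofibroblasts, the contractile matrix-making cells of fibrotic lung. Superoxide dismutases turn superoxide into hydrogen peroxide in the cytosol (Sod1), in mitochondria (Sod2) and outside the cell (Sod3). Catalase (Cat), glutathione peroxidases and peroxiredoxins turn hydrogen peroxide into water. Nqo1, a quinone reductase, and Hmox1, heme oxygenase 1, which breaks down heme, are well-known targets of the transcription factor NRF2 (gene Nfe2l2), which KEAP1 holds in check.

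Nqo1 reached the filter's FPKM of 1 in Acta2-tdT bleomycin mice alone, so that in the comparisons in which it was tested its deposited FPKM had to differ, and it is described but not counted. In Acta2-tdT mice the other 9 genes all rose in deposited FPKM with bleomycin, and 5 of them (Hmox1, Gpx1, Prdx1, Sod2 and Cat) also rose in scaled FPKM. That scaled count was not kept when any 1 mouse was left out, which left 2 to 4 called. The median ratio scaling left Prdx1 and Sod2. Among saline mice the filter's level was reached by 4 of 4 for 5 of the 9 genes, by 3 of 4 for Nox4 and Cat and by 2 of 4 for Hmox1 and Sod2. Of all 12523 genes tested there, 70.4% rose in deposited FPKM and 23.1% in scaled FPKM (8811 higher and 2037 lower in deposited, 2889 higher and 3872 lower in scaled FPKM). Of these genes, 31.3% reached the filter's level in 1 of the groups only. The median log2 change of the 9 genes was 3.27 in deposited FPKM, where that of all genes tested was 1.76, and 0.79 in scaled FPKM, where that of all genes was 0.0033. Every bleomycin mouse was above every saline mouse for 8 of the 9 genes in deposited FPKM (67.8% of all genes tested) and for 4 in scaled FPKM (22% of all genes tested), namely Gpx1, Prdx1, Sod2 and Cat. Cell type markers moved in the same mice in scaled FPKM: with bleomycin 6 of 7 fibroblast markers and 7 of 11 macrophage markers tested were called higher, 5 of 6 neutrophil markers lower, and of 7 smooth muscle markers Des higher and Myh11, Tpm2 and Myl9 lower. Their part in the rises was not tested. In Pdgfra-tdT mice 7 of the 10 genes were tested and limma called none on either scale, where 0.0275% of 7275 genes were called higher with bleomycin. Before adjustment, 312 of all genes there had a p under 0.05 in deposited FPKM and 282 in scaled FPKM. With saline, 6 of the 10 genes could be tested between the lines, and Gpx1, Gpx3 and Sod3 were higher in Acta2-tdT cells on both scales, where 2.72% of 8153 genes were called higher in deposited and 2.02% in scaled FPKM. These counts moved widely when 1 mouse was left out. All genes called then numbered 14 to 2141 in deposited and 13 to 2803 in scaled FPKM, with 0 to 5 of the 10 genes on each scale. With bleomycin all 9 were higher in Acta2-tdT cells in deposited FPKM (71% of 11995 genes) and only Gpx3 and Sod3 in scaled FPKM (14%). Of all genes 8520 were higher and 1033 lower in deposited, 1684 higher and 1889 lower in scaled FPKM. Among Pdgfra-tdT bleomycin mice the filter's level was reached by 1 of 4 for Nox4. It was reached by 2 of 4 for Gpx3, Sod2 and Sod3 and by 3 of 4 for Hmox1 and Cat. Of all genes tested with bleomycin, 17.7% reached the filter's level in 1 of the groups only. Every Acta2-tdT mouse was above every Pdgfra-tdT mouse with saline for Gpx1, Gpx3 and Sod3 on both scales (6.56% of all genes tested in deposited and 7.57% in scaled FPKM). The same held for Nox4, which did not reach the filter in this comparison and so is not among those genes. With bleomycin this was so for 6 of the 9 genes in deposited FPKM (56.8% of all genes tested) and for Gpx1, Gpx3, Sod2 and Sod3 in scaled FPKM (20.1%). The 4 comparisons share groups of mice in pairs, so they are not independent of each other.

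**Figure D1:**
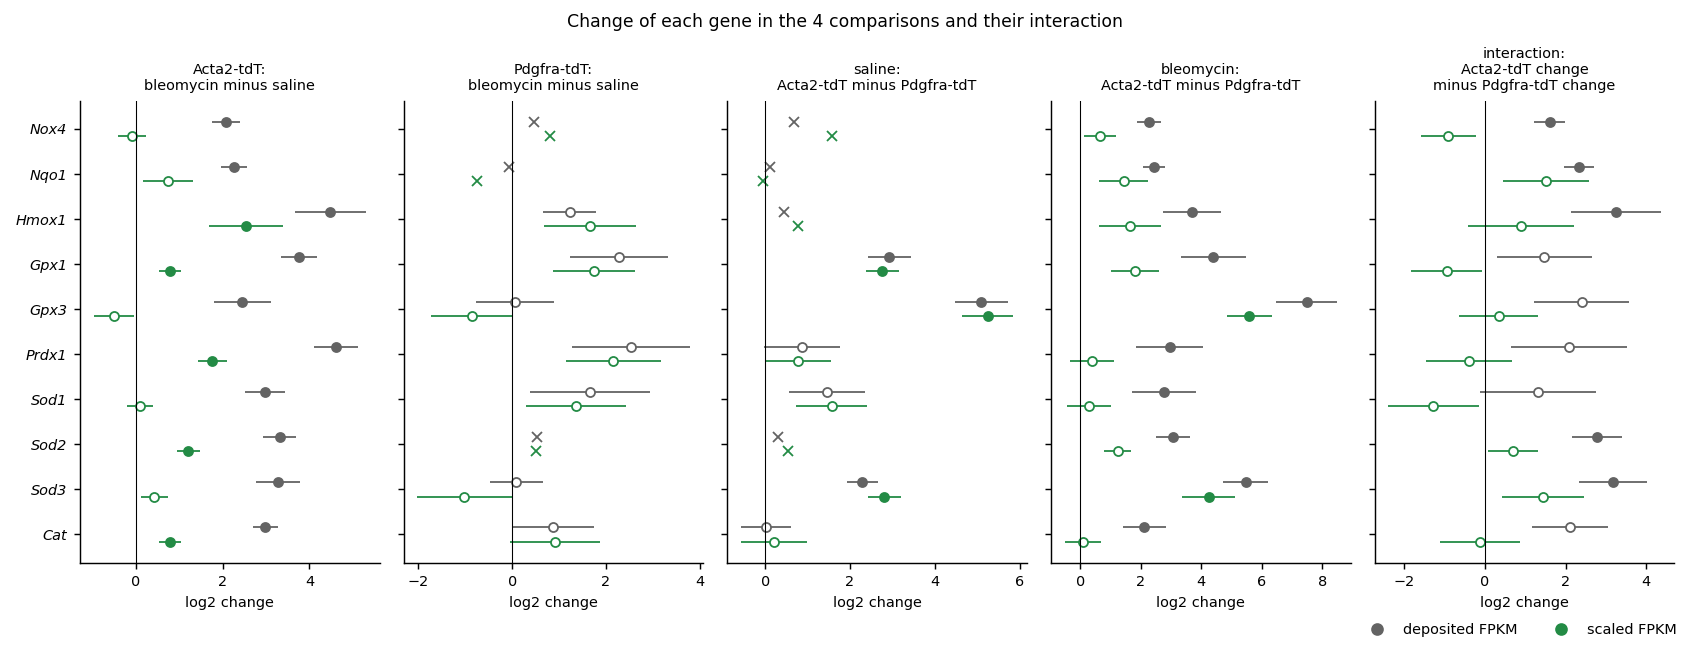
Log2 change of each of the 10 genes (rows) in the 4 comparisons and in the interaction (panels), in deposited FPKM (grey) and scaled FPKM (green). Circles are limma estimates with their SE as bars, filled where the adjusted p was under 0.05; crosses are differences of means of genes below the filter on low values. Every grey circle in the panel of Acta2-tdT bleomycin against saline is filled, and 5 of the 10 green ones are; the circles of Nqo1 are no test, since it passed the filter through Acta2-tdT bleomycin mice alone.

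**Figure D2:**
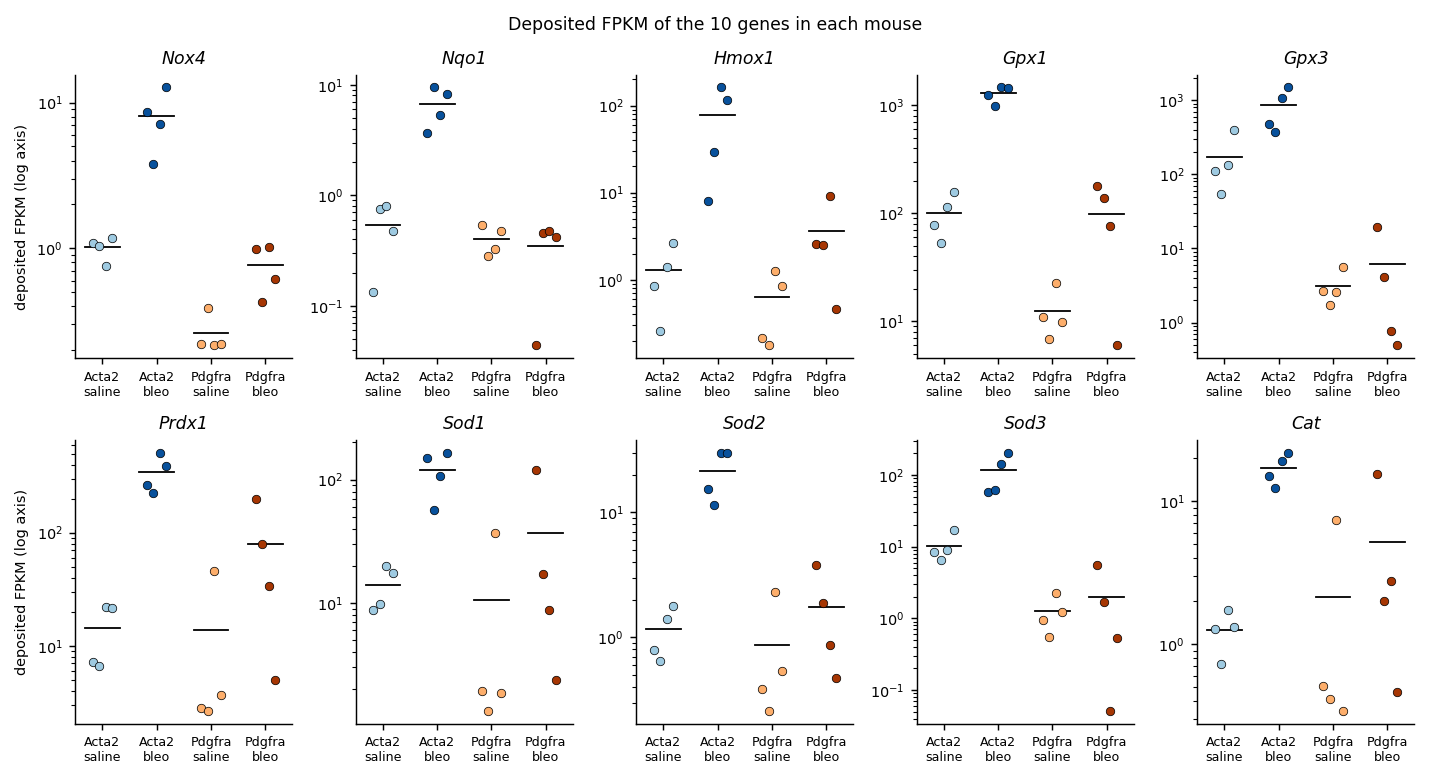
Deposited FPKM of the 10 genes (log axis) in each of the 16 mice, by group; each point is 1 mouse, in the order of mouse numbers, and the line is the mean of 4. The Acta2-tdT bleomycin mice lie above the Acta2-tdT saline mice for 9 genes, and for Gpx3 the groups overlap.

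Nox4 (ENSMUSG00000030562, chromosome 7 from 87246649 to 87398710, plus strand, GRCm38) was low in deposited FPKM outside Acta2-tdT bleomycin mice. Its deposited FPKM was 1.09, 1.04, 0.759 and 1.18 in Acta2-tdT saline mice 1 to 4 and 8.57, 3.81, 7.16 and 12.7 in Acta2-tdT bleomycin mice 5 to 8. All 4 bleomycin mice were thus above all 4 saline mice, with a mean of 8.06 ± 3.68 (SD, n = 4) against 1.02 ± 0.182 (SD, n = 4). The rise was a log2 change of 2.08 ± 0.325 (SE, limma adjusted p = 0.000165). In scaled FPKM the same mice had 28.6, 28.2, 15.3 and 19.4 with saline and 26.4, 15.7, 16.2 and 27.2 with bleomycin. These groups overlapped fully, with a log2 change of -0.09 ± 0.319 (SE, limma adjusted p = 0.821), so no rise of Nox4 beyond that of the protein-coding sum was detected. Leaving out mouse 1 or 2 with saline, or mouse 6 or 7 with bleomycin, turned the sign of this small change, over a range of -0.26 to 0.03.

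In Pdgfra-tdT mice Nox4 was at 0.221, 0.386, 0.215 and 0.220 FPKM with saline (mice 1 to 4) and at 0.995, 0.426, 1.02 and 0.613 with bleomycin (mice 5 to 8). The groups did not overlap in deposited FPKM, a difference for which the exact two-sided permutation test over the 70 labellings of 8 mice gave p = 0.0286, the smallest it can give. In Pdgfra-tdT mice every bleomycin mouse was above every saline mouse for 1.43% of all genes tested in deposited FPKM and for 1.15% in scaled FPKM, and Nox4, which did not reach the filter in this comparison and so is not among those genes, was the only 1 of the 10 of which this was so, in deposited FPKM alone. In scaled FPKM the values were 7.38, 12.8, 3.52 and 6.09 with saline and 6.75, 7.83, 23.1 and 20.6 with bleomycin, which overlapped (exact permutation p = 0.171). The values with saline rested on 7.13 to 33.2 implied fragments. Their lower Cufflinks bound was above the median of 1962 olfactory and vomeronasal receptor genes, genes of the nose, in none of these 4 mice (0 of 4), against 3 of 4 Pdgfra-tdT bleomycin mice and all 8 Acta2-tdT mice. Between the lines with saline, all 4 Acta2-tdT mice were above all 4 Pdgfra-tdT mice on both scales (22.9 ± 6.61 against 7.46 ± 3.94 scaled FPKM, SD, n = 4; exact permutation p = 0.0286). Nox4 did not reach the filter in this comparison either, so limma did not test it there. Between the lines with bleomycin, Nox4 was higher in Acta2-tdT cells in deposited FPKM, with a log2 change of 2.28 ± 0.4 (SE, limma adjusted p = 0.000536), which turned to -0.056 under the median ratio scaling. Nox4 entered this test largely through its high group, since 4 of 4 Acta2-tdT but 1 of 4 Pdgfra-tdT mice reached the filter's level. It was not called in scaled FPKM, with 0.66 ± 0.528 (SE, limma adjusted p = 0.347), where the groups overlapped. In order of mean scaled FPKM, Acta2-tdT saline (22.9) and Acta2-tdT bleomycin (21.4) were followed by Pdgfra-tdT bleomycin (14.6 ± 8.47, SD, n = 4) and Pdgfra-tdT saline (7.46), and of these neighbours no pair was free of overlap.

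Of 16 NADPH oxidase genes and partners measured, Nox4 included, 8 were tested in Acta2-tdT bleomycin against saline. All 8 rose in deposited FPKM, with a median log2 change of 2.98, and 3 rose in scaled FPKM, with a median of 0.54, beside 70.4% and 23.1% of all genes tested. The 3 were Rac1, a small GTPase of several oxidases, with a scaled log2 change of 1.67 ± 0.258 (SE, limma adjusted p = 0.000694), Poldip2, a Nox4-binding protein, with 1.88 ± 0.453 (SE, limma adjusted p = 0.00746), and Ncf1, a cytosolic subunit of the phagocyte oxidase. Cybb, the catalytic subunit of the phagocyte oxidase, had a scaled log2 change of 0.47 ± 0.405 (SE, limma adjusted p = 0.348), and Ncf4, another cytosolic subunit, had 0.61 ± 0.414 (SE, limma adjusted p = 0.243). In Pdgfra-tdT mice 4 of the 16 were tested, and limma called 0 on both scales. Between the lines with saline Ncf4 reached the filter in Acta2-tdT mice alone. It was at 85.1 ± 39.1 scaled FPKM in Acta2-tdT and at 10.8 ± 3.91 in Pdgfra-tdT saline mice (SD, n = 4), given here without a test. Cyba, the partner subunit of Nox4, was not analysed here.

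All 3 superoxide dismutases rose in deposited FPKM in Acta2-tdT bleomycin mice, by log2 2.97 (Sod1), 3.31 (Sod2) and 3.27 (Sod3). In scaled FPKM only Sod2 was called there. Differences between these genes were not tested. Sod2, the mitochondrial enzyme (ENSMUSG00000006818, chromosome 17 from 13007839 to 13018119, plus strand), was at 20.7, 17.6, 28.1 and 29.4 scaled FPKM in Acta2-tdT saline and at 47.1, 46.9, 67.5 and 64.2 in Acta2-tdT bleomycin mice. All bleomycin mice were above all saline mice. The mean rose from 24.0 ± 5.71 to 56.4 ± 11.0 scaled FPKM (SD, n = 4), a log2 change of 1.21 ± 0.268 (SE, limma adjusted p = 0.00491), and the call stood when any 1 mouse was left out. In deposited FPKM Sod2 rose by a log2 of 3.31 ± 0.378 (SE, limma adjusted p = 2.67e-05). In Pdgfra-tdT mice Sod2 did not reach the filter, and its scaled FPKM was 12.8, 8.60, 37.5 and 15.0 with saline and 25.6, 34.5, 19.8 and 15.98 with bleomycin, which overlapped (exact permutation p = 0.343). Saline mouse 3, which stood apart by endothelial markers, was the highest of the 8.

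Sod3, the extracellular enzyme (ENSMUSG00000072941, chromosome 5 from 52363791 to 52371418, plus strand), separated the lines. Its scaled FPKM was 220, 179, 179 and 279 in Acta2-tdT saline mice and 31.3, 18.3, 37.4 and 34.1 in Pdgfra-tdT saline mice. With bleomycin it was 178, 252, 325 and 438 in Acta2-tdT and 37.9, 30.7, 1.16 and 17.7 in Pdgfra-tdT mice. Every Acta2-tdT mouse was therefore above every Pdgfra-tdT mouse under both treatments. With saline the difference was a log2 of 2.80 ± 0.386 (SE, limma adjusted p = 0.0112) in scaled FPKM and 2.29 ± 0.372 (SE, limma adjusted p = 0.0176) in deposited FPKM. With bleomycin it was 4.25 ± 0.879 (SE, limma adjusted p = 0.00698) in scaled FPKM and 5.47 ± 0.755 (SE, limma adjusted p = 0.000159) in deposited FPKM. The saline call was lost in scaled FPKM without any 1 of the 4 Acta2-tdT mice, with adjusted p up to 0.0997, and in deposited FPKM without any 1 mouse but Pdgfra-tdT mouse 3, with adjusted p up to 0.134, while the log2 change kept between 2.03 and 2.92 over both scales. The scaled call was also lost under the median ratio scaling (log2 1.99, limma adjusted p = 0.109). Smooth muscle and myofibroblast markers moved with this difference, all 7 of 7 being called higher in Acta2-tdT cells under both treatments, with summed scaled FPKM of 12053 to 17608 against 273.0 to 595.8 with saline and of 9778 to 14591 against 47.9 to 297.4 with bleomycin. Neutrophil markers moved with it too, with sums of 19700 to 29822 against 355.7 to 1560 with saline and of 2637 to 17638 against 330.0 to 996.6 with bleomycin, and 3 of 6 (Retnlg, S100a8 and S100a9) were called higher in Acta2-tdT cells under both treatments. With saline macrophage marker sums were also higher in Acta2-tdT mice without overlap (5449 to 11999 against 862.0 to 3743). Of 8 macrophage markers tested there 1 (Fcer1g) was called higher in scaled FPKM. With bleomycin these sums overlapped (10585 to 30862 against 14891 to 42616), and 2 of 12 were called higher and 1 lower. With bleomycin 6 of 7 fibroblast markers were called higher too, with sums of 4316 to 6824 against 81.2 to 1086, and 4 of 5 endothelial markers tested were called lower. The part of these cells in the Sod3 difference was not tested. Within a line Sod3 was not called in scaled FPKM, with a log2 change of 0.42 ± 0.317 (SE, limma adjusted p = 0.283) in Acta2-tdT and -1.02 ± 1.01 (SE, limma adjusted p = 0.737) in Pdgfra-tdT mice.

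Sod1, the cytosolic enzyme (ENSMUSG00000022982, chromosome 16 from 90220742 to 90226322, plus strand), was at 231, 267, 403 and 290 scaled FPKM in Acta2-tdT saline and at 460, 232, 243 and 354 in Acta2-tdT bleomycin mice. These groups overlapped, with a log2 change of 0.09 ± 0.3 (SE, limma adjusted p = 0.815) in scaled FPKM beside 2.97 ± 0.465 (SE, limma adjusted p = 0.000166) in deposited FPKM. The scaled change turned negative without saline mouse 1 or bleomycin mouse 5, to as low as -0.10, and under the median ratio scaling (-0.29). In Pdgfra-tdT mice Sod1 was at 64.5, 44.4, 602 and 51.5 scaled FPKM with saline and at 811, 315, 199 and 79.8 with bleomycin. The 2 highest of these 8 values were those of mice 3 and 5, which stood apart by endothelial markers, and mouse 3 lay far above the other 3 saline mice. With saline the difference between the lines was not called (scaled log2 1.57 ± 0.836, SE, limma adjusted p = 0.437). Without Pdgfra-tdT saline mouse 3 the same difference was 2.44 and was called (limma adjusted p = 0.00203). Leaving out 1 mouse in this comparison moved the number of all genes called widely, from 13 to 2803. Of the 3 superoxide dismutases and the copper chaperone Ccs, which loads copper into Sod1, 2 rose in scaled FPKM in Acta2-tdT bleomycin mice (23.1% of all genes), Sod2 and Ccs, the latter by a log2 of 1.58 ± 0.498 (SE, limma adjusted p = 0.0258). The call of Ccs was lost without Acta2-tdT saline mouse 3 or bleomycin mouse 8, with adjusted p up to 0.0596, and under the median ratio scaling (limma adjusted p = 0.0558).

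**Figure D3:**
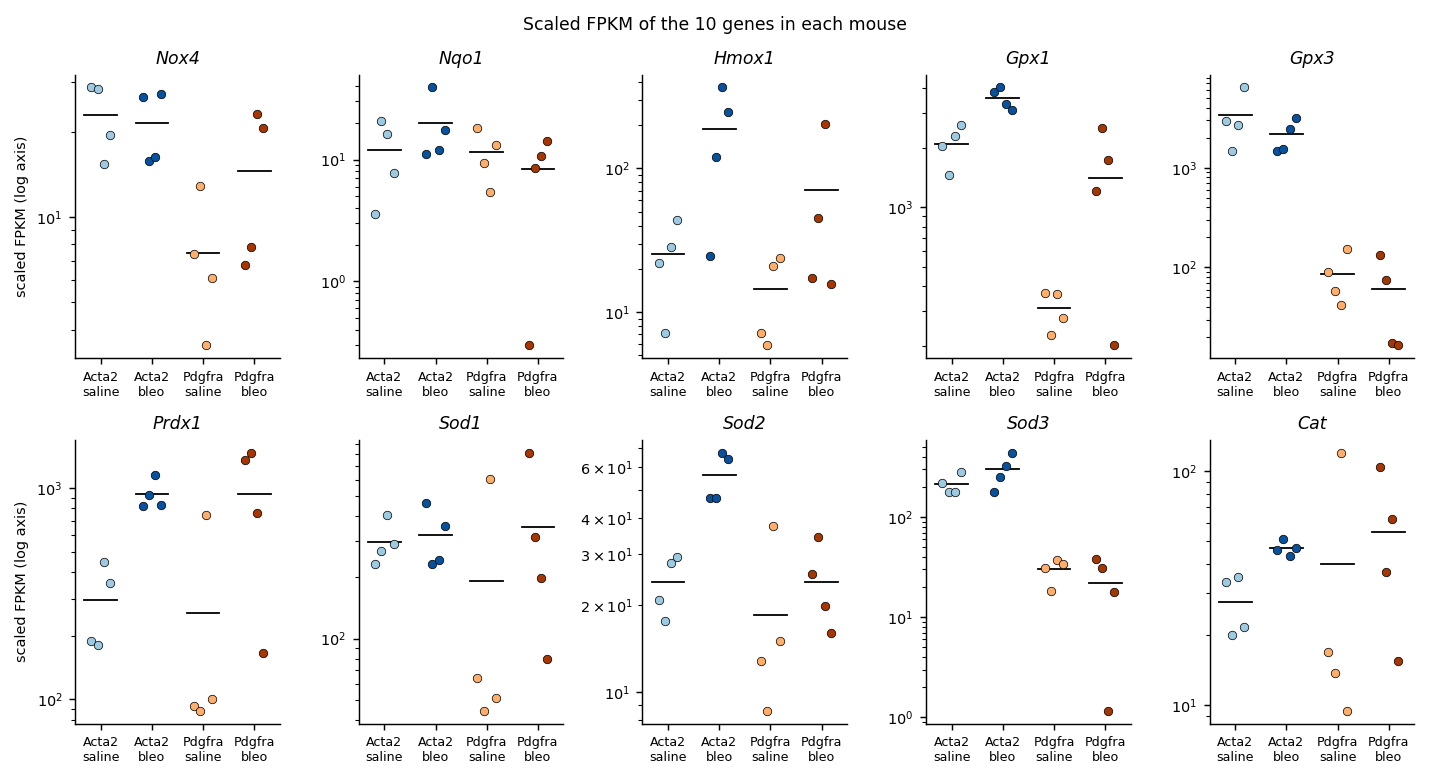
Scaled FPKM of the 10 genes (log axis) in each of the 16 mice, by group; each point is 1 mouse, in the order of mouse numbers, and the line is the mean of 4. Sod3 and Gpx3 lie higher in all 8 Acta2-tdT mice than in all 8 Pdgfra-tdT mice, and Sod1, Prdx1 and Cat have 1 high mouse, mouse 3, among the Pdgfra-tdT saline mice.

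Gpx3, the secreted glutathione peroxidase (ENSMUSG00000018339, chromosome 11 from 54902772 to 54910377, plus strand), showed the widest difference between the lines among the 10 genes. Its scaled FPKM was 2927, 1462, 2691 and 6389 in Acta2-tdT saline and 90.1, 57.4, 42.2 and 153 in Pdgfra-tdT saline mice. With bleomycin it was 1489, 1537, 2444 and 3181 in Acta2-tdT and 133, 74.9, 17.5 and 16.5 in Pdgfra-tdT mice. No Acta2-tdT mouse came near a Pdgfra-tdT mouse. With saline the mean was 39.3 times higher in scaled FPKM (3367 ± 2114 against 85.8 ± 49.3, SD, n = 4), with log2 changes of 5.25 ± 0.606 (SE, limma adjusted p = 0.00532) in scaled and 5.09 ± 0.631 (SE, limma adjusted p = 0.00608) in deposited FPKM. Leaving out Acta2-tdT saline mouse 3 ended this call, with adjusted p of 0.0539 in scaled and 0.0704 in deposited FPKM, and the median ratio scaling ended it in scaled FPKM (log2 4.42, limma adjusted p = 0.0542). With bleomycin the log2 change was 5.59 ± 0.748 (SE, limma adjusted p = 0.00166) in scaled and 7.49 ± 1.002 (SE, limma adjusted p = 0.000135) in deposited FPKM. The markers given for Sod3 differed between the same mice, the macrophage marker sums without overlap with saline only, and their part was not tested. Within Acta2-tdT mice Gpx3 rose with bleomycin in deposited FPKM only, by a log2 of 2.45 ± 0.657 (SE, limma adjusted p = 0.00501), beside -0.51 ± 0.465 (SE, limma adjusted p = 0.374) in scaled FPKM, so its sign differed between the scales. It was the 1 gene of the 10 whose deposited values overlapped between these groups, since saline mouse 4 (389 FPKM) was above bleomycin mouse 6 (372 FPKM).

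Gpx1, the cytosolic glutathione peroxidase (ENSMUSG00000063856, chromosome 9 from 108339054 to 108340343, plus strand), was among the highest of the 10 genes in Acta2-tdT cells. It was at 2052, 1459, 2298 and 2603 scaled FPKM in Acta2-tdT saline and at 3829, 4046, 3322 and 3128 in Acta2-tdT bleomycin mice. Each bleomycin mouse was above each saline mouse, a log2 change of 0.79 ± 0.248 (SE, limma adjusted p = 0.025) beside 3.75 ± 0.416 (SE, limma adjusted p = 2.36e-05) in deposited FPKM. The scaled call was lost without saline mouse 1 or 2 or bleomycin mouse 5 or 6, with adjusted p up to 0.0541, and the median ratio scaling gave a log2 change of 0.41 (limma adjusted p = 0.156). In Pdgfra-tdT mice Gpx1 was at 367, 227, 365 and 275 scaled FPKM with saline and at 1206, 2524, 1731 and 200 with bleomycin. Of these bleomycin mice 3 were above all saline mice and mouse 8 was below them, and the change was not called (scaled log2 1.74 ± 0.877, SE, limma adjusted p = 0.737). With saline Gpx1 was higher in Acta2-tdT than in Pdgfra-tdT cells by a scaled log2 of 2.76 ± 0.385 (SE, limma adjusted p = 0.0114) and a deposited log2 of 2.92 ± 0.508 (SE, limma adjusted p = 0.0227). In the same mice the macrophage, neutrophil and smooth muscle marker sums given above were all higher in Acta2-tdT cells without overlap, and their part was not tested. The median ratio scaling ended the scaled call (log2 1.93, limma adjusted p = 0.124), as did leaving out any 1 of the 4 Acta2-tdT mice (adjusted p up to 0.138), and any 1 mouse but Pdgfra-tdT mouse 3 the deposited call (adjusted p up to 0.182). With bleomycin it was called in deposited FPKM only, by a log2 of 4.39 ± 1.08 (SE, limma adjusted p = 0.0033), beside 1.81 ± 0.794 (SE, limma adjusted p = 0.109) in scaled FPKM.

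Among 8 glutathione peroxidase genes measured, 5 were tested in Acta2-tdT bleomycin against saline. All 5 rose in deposited FPKM and 3 in scaled FPKM (70.4% and 23.1% of all genes), Gpx1 and the endoplasmic reticulum enzymes Gpx7 and Gpx8. Gpx7 rose in scaled FPKM from 71.4 ± 17.7 to 327 ± 87.7 (SD, n = 4), a log2 change of 2.19 ± 0.286 (SE, limma adjusted p = 0.000277). Gpx8 rose by a scaled log2 of 1.08 ± 0.221 (SE, limma adjusted p = 0.00336), while Gpx4, which protects membrane lipids, had 0.68 ± 0.357 (SE, limma adjusted p = 0.135). With bleomycin 3 of 5, Gpx3, Gpx7 and Gpx8, were called higher in Acta2-tdT than in Pdgfra-tdT cells in scaled FPKM (14% of all genes).

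Prdx1, a peroxiredoxin (ENSMUSG00000028691, chromosome 4 from 116685544 to 116700822, plus strand), rose most clearly in Acta2-tdT mice beside Sod2. Its scaled FPKM was 190, 181, 448 and 356 with saline and 821, 928, 1156 and 829 with bleomycin. The groups were far apart, with means of 294 ± 131 and 934 ± 156 (SD, n = 4). The log2 change was 1.76 ± 0.339 (SE, limma adjusted p = 0.00237) in scaled FPKM and 4.62 ± 0.513 (SE, limma adjusted p = 2.38e-05) in deposited FPKM, and no single mouse ended the call. In a fit of all 16 mice, in which the spread of the Pdgfra-tdT mice enters, the scaled call was lost (limma adjusted p = 0.091). In Pdgfra-tdT mice Prdx1 was at 93.4, 88.4, 746 and 101 scaled FPKM with saline and at 1350, 1467, 758 and 166 with bleomycin. Bleomycin mice 5, 6 and 7 were above all saline mice and mouse 8 was below saline mouse 3, and the change was not called (scaled log2 2.15 ± 1.02, SE, limma adjusted p = 0.737). With saline the difference between the lines was not called (scaled log2 0.78 ± 0.772, SE, limma adjusted p = 0.695; -0.046 under the median ratio scaling), but without Pdgfra-tdT mouse 3 the difference was 1.52 and was called (limma adjusted p = 0.0231). As given for Sod1, leaving out 1 mouse there called 13 to 2803 of all genes.

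The peroxiredoxins, the thioredoxins that recharge them and their reductases moved widely in Acta2-tdT mice. Of 12 genes measured and tested, all 12 rose in deposited FPKM and 8 in scaled FPKM (70.4% and 23.1% of all genes), with median log2 changes of 3.56 and 1.64. Of the 12, Srxn1 and Txnrd1 reached the filter in bleomycin mice alone. Prdx6 rose by a scaled log2 of 1.97 ± 0.479 (SE, limma adjusted p = 0.00791), Prdx5 by 1.65 ± 0.435 (SE, limma adjusted p = 0.0115) and Prdx4 by 1.64 ± 0.277 (SE, limma adjusted p = 0.00113). The others called were Prdx1, Prdx2, Txn1, Txnrd1 and Srxn1. In Pdgfra-tdT mice 8 of the 12 were tested and limma called 0 on both scales, with a median log2 change of 1.40 in scaled FPKM beside -0.54 for all genes tested.

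Cat, which encodes catalase (ENSMUSG00000027187, chromosome 2 from 103453849 to 103485160, minus strand), was at 33.5, 19.9, 35.1 and 21.5 scaled FPKM in Acta2-tdT saline and at 46.1, 51.1, 43.2 and 46.7 in Acta2-tdT bleomycin mice. All bleomycin mice were above all saline mice, by a log2 of 0.79 ± 0.263 (SE, limma adjusted p = 0.0324), beside 2.98 ± 0.291 (SE, limma adjusted p = 1.67e-05) in deposited FPKM. Leaving out saline mouse 2 or 4, or any 1 of the 4 bleomycin mice, ended the scaled call, with adjusted p up to 0.0732, and the median ratio scaling gave 0.41 (limma adjusted p = 0.219). In Pdgfra-tdT mice Cat was at 16.9, 13.7, 119.7 and 9.46 scaled FPKM with saline and at 104, 37.0, 62.3 and 15.5 with bleomycin. Mouse 3 with saline and mouse 5 with bleomycin, the 2 with high endothelial markers, had the 2 highest values of all 16 mice. Without any 1 of mice 3, 5, 6 and 7 Cat did not reach the filter within Pdgfra-tdT mice and was not tested there. The difference between the lines with saline was not called (scaled log2 0.20 ± 0.779, SE, limma adjusted p = 0.926; -0.58 under the median ratio scaling).

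**Figure D4:**
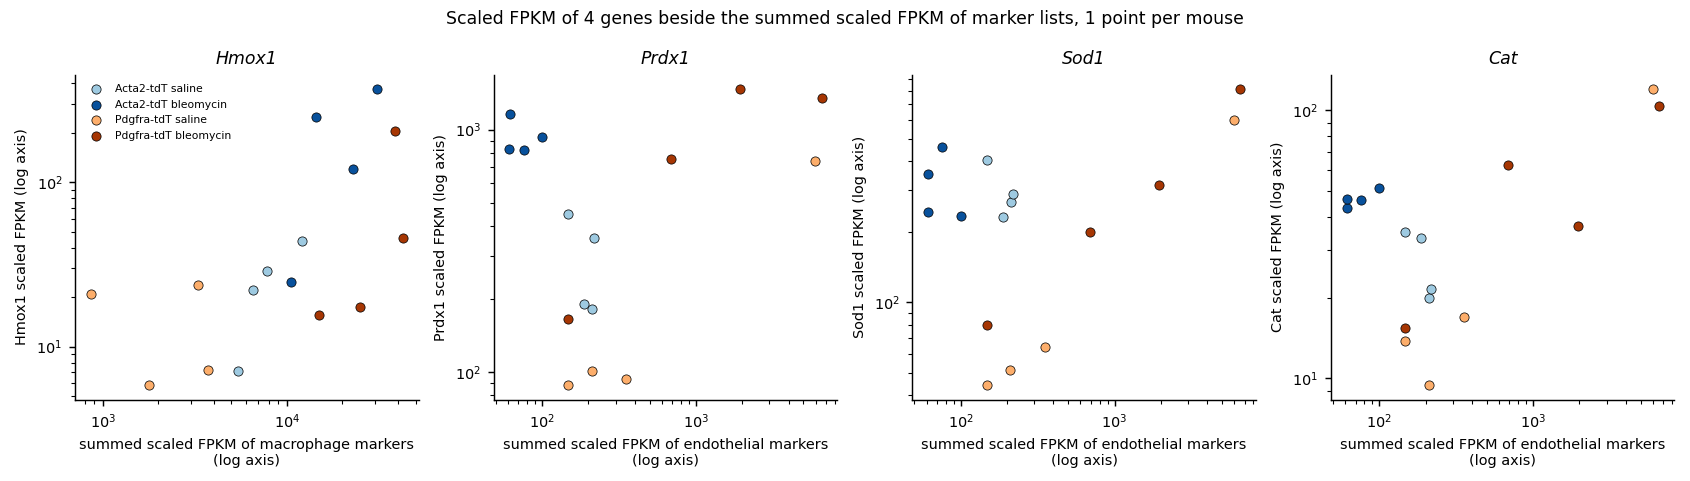
Scaled FPKM (log axis) of Hmox1 against the summed scaled FPKM of 12 macrophage markers, and of Prdx1, Sod1 and Cat against that of 7 endothelial markers (log axes); each point is 1 mouse, coloured by group. Pdgfra-tdT saline mouse 3 and bleomycin mouse 5, at 5989 and 6560 on the endothelial axis, hold the 2 highest values of Sod1 and Cat.

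Hmox1 (ENSMUSG00000005413, chromosome 8 from 75093621 to 75100589, plus strand) had the largest scaled rise of the 10 genes in Acta2-tdT mice, and the most uneven one. It was at 22.1, 7.10, 28.6 and 43.8 scaled FPKM with saline and at 24.7, 120, 366 and 248 with bleomycin. Bleomycin mice 6, 7 and 8 were above all saline mice, and mouse 5 lay among them. The mean rose from 25.4 ± 15.2 to 190 ± 149 scaled FPKM (SD, n = 4), a log2 change of 2.54 ± 0.854 (SE, limma adjusted p = 0.033; exact permutation p = 0.0857). The call was lost when saline mouse 1, 2 or 3 or bleomycin mouse 6, 7 or 8 was left out, with adjusted p up to 0.0837, and under the median ratio scaling (limma adjusted p = 0.0542). In deposited FPKM Hmox1 was at 0.838, 0.261, 1.42 and 2.67 with saline and at 8.03, 28.9, 161 and 115 with bleomycin, without overlap, a log2 change of 4.48 ± 0.823 (SE, limma adjusted p = 0.000472). The 12 macrophage markers moved with it. They summed to 5449 to 11999 scaled FPKM in Acta2-tdT saline and to 10585 to 30862 in Acta2-tdT bleomycin mice, 7 of the 11 tested were called higher, and none of the 12 was at 0 in all mice of a group. Mouse 5 had the lowest sum among the bleomycin mice (10585) and the lowest Hmox1, and mouse 7 the highest of both (30862), but mouse 6, with a sum of 22936, had less Hmox1 than mouse 8, with 14340. The part of macrophage RNA in the Hmox1 values was not tested. In Pdgfra-tdT mice Hmox1 was at 7.16, 5.86, 20.9 and 23.7 scaled FPKM with saline and at 17.3, 45.6, 205 and 15.7 with bleomycin. Mice 6 and 7 were above all saline mice, and the change was not called (scaled log2 1.65 ± 0.981, SE, limma adjusted p = 0.737). The macrophage markers summed to 862.0 to 3743 there with saline and to 14891 to 42616 with bleomycin, without overlap, and mouse 6 had the highest sum (42616) with an Hmox1 level below that of mouse 7 (sum 38776).

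Nqo1 (ENSMUSG00000003849, chromosome 8 from 107388225 to 107403206, minus strand) was low outside Acta2-tdT bleomycin mice. Its deposited FPKM was 0.134, 0.754, 0.807 and 0.475 in Acta2-tdT saline and 3.64, 9.46, 5.28 and 8.19 in Acta2-tdT bleomycin mice. It passed the filter on low values through the bleomycin group alone, so these levels are a description with no test. The groups did not overlap, and their means were 0.543 ± 0.309 and 6.64 ± 2.66 FPKM (SD, n = 4). In scaled FPKM the mice had 3.54, 20.6, 16.3 and 7.80 with saline and 11.2, 39.1, 12.0 and 17.6 with bleomycin, which overlapped. In Pdgfra-tdT mice Nqo1 was at 0.540, 0.284, 0.328 and 0.473 FPKM with saline and at 0.0439, 0.460, 0.472 and 0.419 with bleomycin. No difference between those groups was detectable at 7 to 17 and 1 to 9 implied fragments, with a lower bound above the receptor median in 0 of 4 mice of each group (exact permutation p = 0.743 in deposited FPKM). In Acta2-tdT saline mice Nqo1 rested on 4 to 21 implied fragments.

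The letters upstream of the genes were searched for the core of the antioxidant response element, TGACNNNGC, to which NRF2 binds with small MAF proteins, on both strands of the 250 bases before the RefSeq start of each gene (GRCm38.p6). Of 32851 such windows of all genes, 10.2% held it. It was found in 2 of the 8 genes of the 10 matched by symbol, Prdx1 and Sod1, and not in this window of Nox4, Nqo1, Cat, Gpx1, Gpx3 or Sod2. In Prdx1 it lay 133 to 125 bases before the start and overlapped a match to the AP-1 letters TGANTCA, which 6.75% of all windows held. In Sod1 it lay 56 to 48 bases before the start. Hmox1 and Sod3 were not searched. The windows of Prdx1 (chr4:116685349-116685598, plus strand) and Sod1 (chr16:90220512-90220761, plus strand) are printed because they hold the match, in capitals, and that of Nqo1 (chr8:107403206-107403455, minus strand) because Nqo1 is the best-known NRF2 target of the 10 and holds none there. A match of letters is no binding site, and no match says only that the letters are absent from this window.
Prdx1: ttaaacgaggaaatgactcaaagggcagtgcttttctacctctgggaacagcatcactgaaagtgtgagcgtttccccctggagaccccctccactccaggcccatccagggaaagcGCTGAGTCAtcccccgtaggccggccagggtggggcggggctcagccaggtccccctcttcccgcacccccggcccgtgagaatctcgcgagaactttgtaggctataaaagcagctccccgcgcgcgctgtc
Sod1: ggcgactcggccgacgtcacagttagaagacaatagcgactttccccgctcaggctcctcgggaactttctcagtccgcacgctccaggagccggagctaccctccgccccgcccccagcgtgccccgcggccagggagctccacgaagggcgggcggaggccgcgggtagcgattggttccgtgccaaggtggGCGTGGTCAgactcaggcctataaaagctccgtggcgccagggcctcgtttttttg
Nqo1: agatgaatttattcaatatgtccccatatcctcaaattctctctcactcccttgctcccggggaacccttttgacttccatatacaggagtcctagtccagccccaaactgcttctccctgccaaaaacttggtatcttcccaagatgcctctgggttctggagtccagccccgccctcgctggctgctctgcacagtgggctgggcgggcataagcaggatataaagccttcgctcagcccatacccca

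Both genes with the match, Prdx1 and Sod1, were called higher with bleomycin in Acta2-tdT cells in deposited FPKM (log2 4.62 and 2.97). In scaled FPKM Prdx1 was called and Sod1 was not, and the difference between the 2 genes was not tested. Among 7 regulators of NRF2, 6 were tested in Acta2-tdT bleomycin against saline. All 6 rose in deposited FPKM and 2 in scaled FPKM (70.4% and 23.1% of all genes; Bach1 and Mafk reached the filter in bleomycin mice alone), Keap1 by a log2 of 1.56 ± 0.437 (SE, limma adjusted p = 0.0155) and Sqstm1, an autophagy receptor that binds KEAP1, by 1.05 ± 0.341 (SE, limma adjusted p = 0.029). The call of Sqstm1 was lost without saline mouse 1, 2 or 3 or bleomycin mouse 7 or 8, with adjusted p up to 0.0739, and under the median ratio scaling (limma adjusted p = 0.0982). Nfe2l2 itself had a scaled log2 change of 0.63 ± 0.302 (SE, limma adjusted p = 0.107). Of 25 NRF2 target genes measured, 20 were tested, of which 19 rose in deposited FPKM (70.4% of all genes). Of the 19, Abcc1, Gclc, Nqo1, Srxn1 and Txnrd1 reached the filter in bleomycin mice alone, so that they had to be higher there. In scaled FPKM 10 rose (23.1% of all genes), Srxn1 and Txnrd1 included, among them Hmox1, Prdx1 and Gclm, a subunit of the enzyme that starts glutathione synthesis (log2 1.73 ± 0.425, SE, limma adjusted p = 0.00825). One fell, the glutathione transferase Gstm1, by 3.40 ± 0.408 (SE, limma adjusted p = 0.000182), and its deposited change was -0.43 (limma adjusted p = 0.472). The median scaled log2 change of the 20 was 1.02, beside 0.0033 for all genes tested. In Pdgfra-tdT mice 12 of the 25 were tested and limma called 0 on both scales, with a median scaled log2 change of 1.73.

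Of 7 genes of glutathione synthesis and reduction 6 were tested in Acta2-tdT mice, and 2 rose in scaled FPKM (23.1% of all genes), Gclm and Gss, the latter, like Gclc, having reached the filter in bleomycin mice alone, while Gsr, glutathione reductase, had 0.11 ± 0.278 (SE, limma adjusted p = 0.752) and Glrx, glutaredoxin, had 0.98 ± 0.381 (SE, limma adjusted p = 0.0567). The sign for Gsr turned without saline mouse 3 and under the median ratio scaling. Of 10 genes of heme and iron handling, the pathway in which Hmox1 works, 9 rose in deposited FPKM and 6 in scaled FPKM in Acta2-tdT bleomycin mice (70.4% and 23.1% of all genes). Slc40a1, which exports iron and is 1 of the 9, reached the filter in bleomycin mice alone. The 6 were Hmox1, its constitutive counterpart Hmox2, the biliverdin reductase Blvra, Fech, Slc48a1 and the ferritin light chain gene Ftl1, which rose by a scaled log2 of 1.02 ± 0.374 (SE, limma adjusted p = 0.0453). The call of Ftl1 was lost without saline mouse 1, 2 or 3 or bleomycin mouse 6, 7 or 8, with adjusted p up to 0.116, and under the median ratio scaling (limma adjusted p = 0.142). Blvrb had 1.02 ± 0.388 (SE, limma adjusted p = 0.053) and the ferritin heavy chain gene Fth1 0.04 ± 0.419 (SE, limma adjusted p = 0.936), a sign that turned under the median ratio scaling and when single mice were left out. Tfrc, the transferrin receptor, fell by a scaled log2 of 2.70 ± 0.389 (SE, limma adjusted p = 0.000468), while its deposited change was 0.016 (limma adjusted p = 0.953). Taldo1, an enzyme of the pentose phosphate pathway, had a scaled log2 change of -0.010 ± 0.317 (SE, limma adjusted p = 0.98) and a deposited one of 2.92. Over the 8 lists together, 69 genes other than the 10 were measured and 52 tested in Acta2-tdT mice, of which 26 rose and 2 fell in scaled FPKM, beside 23.1% and 30.9% of all genes tested. Of the 52, 8 reached the filter in bleomycin mice alone, and Gss, Srxn1 and Txnrd1 of these are among the 26.

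Between the lines with bleomycin, 8 of 52 genes tested were called higher in Acta2-tdT cells and 1 lower in scaled FPKM, beside 14% and 15.7% of all genes tested. Of the 8, Mafk and Srxn1 reached the filter in Acta2-tdT mice alone. The lower one was Tfrc (log2 -2.55 ± 0.588, SE, limma adjusted p = 0.0109). With saline 32 were tested, and apart from Ncf4, described above, Fth1 was called higher in scaled FPKM (2.02% of all genes tested), by a log2 of 2.70 ± 0.465 (SE, limma adjusted p = 0.0271). That call of Fth1 was lost without any 1 mouse but Pdgfra-tdT mouse 3, with adjusted p up to 0.24, and under the median ratio scaling (limma adjusted p = 0.175). For the 10 genes themselves with bleomycin, the deposited calls of Prdx1 (2.95 ± 1.10, SE, limma adjusted p = 0.0263), Sod1 (2.77 ± 1.06, SE, limma adjusted p = 0.0303) and Cat (2.12 ± 0.698, SE, limma adjusted p = 0.015) were the weakest. In scaled FPKM these 3 had log2 changes of 0.39, 0.29 and 0.08, and each turned negative without Pdgfra-tdT mouse 8 and under the median ratio scaling, and that of Cat also without Pdgfra-tdT mouse 6 (-0.0050). The deposited call of Prdx1 was lost without Acta2-tdT mouse 7 or 8 or Pdgfra-tdT mouse 7 (adjusted p up to 0.0733), and that of Sod1 without Acta2-tdT mouse 5, 7 or 8 or Pdgfra-tdT mouse 7 or 8 (adjusted p up to 0.0749).

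Whether bleomycin changed the genes more in one line than in the other was tested as the interaction over all 16 mice. In deposited FPKM 4 of the 9 genes other than Nqo1 had a larger rise in Acta2-tdT cells, where 36.6% of 16605 genes did. The differences of the log2 changes were 1.60 ± 0.386 (SE, limma adjusted p = 0.00521) for Nox4, 3.25 ± 1.11 (SE, limma adjusted p = 0.0308) for Hmox1, 2.79 ± 0.624 (SE, limma adjusted p = 0.00347) for Sod2 and 3.18 ± 0.834 (SE, limma adjusted p = 0.00852) for Sod3. With a pseudocount of 0.1 the calls of Nox4 (limma adjusted p = 0.0695) and Hmox1 (limma adjusted p = 0.102) were lost, and that of Hmox1 also without the filter (limma adjusted p = 0.074). In scaled FPKM limma called 0 of these 9, where 1.11% of all genes were called with a larger and 6.71% with a smaller change in Acta2-tdT cells and 4047 genes had an unadjusted p under 0.05. There the difference was -0.91 ± 0.679 (SE, limma adjusted p = 0.466) for Nox4 and 1.44 ± 1.01 (SE, limma adjusted p = 0.427) for Sod3, and the SE of the 10 genes lay between 0.616 (Sod2) and 1.32 (Hmox1). The interaction thus had opposite signs on the 2 scales for Nox4, and also for Gpx1, Prdx1, Sod1 and Cat, which were not called on either. The deposited call of Hmox1 was lost without Acta2-tdT saline mouse 1 or 2, Acta2-tdT bleomycin mouse 7 or 8, Pdgfra-tdT saline mouse 3 or Pdgfra-tdT bleomycin mouse 8, with adjusted p up to 0.076. Without Pdgfra-tdT bleomycin mouse 5, which had the highest endothelial marker sum, Gpx3 (3.18, limma adjusted p = 0.0152) and Cat (2.78, limma adjusted p = 0.0073) were called as well. Of the other 54 tested genes of the lists 1 was called in scaled FPKM, Fth1, with a difference of -3.22 (limma adjusted p = 0.0248), which was lost without Acta2-tdT saline mouse 1 or 3 or bleomycin mouse 7 or 8 (adjusted p up to 0.0636).

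The genes whose pattern over the 16 mice was most like that of Nox4 and Hmox1 were found by the mean difference of their ranks in scaled FPKM, among 10354 nuclear protein-coding genes. For Nox4 they were Higd1b and Rai2 (mean rank difference 2 each), Dact3 (2.06), Kazald1 (2.12) and Fads3 (2.25), where the median gene was at 4.88. Higd1b, a marker of pericytes, had a median scaled FPKM of 337 in Acta2-tdT saline and 28.4 in Acta2-tdT bleomycin mice, but 2.54 and 5.73 in Pdgfra-tdT mice. Nox4 itself had 23.8, 21.3, 6.73 and 14.2 in the same order, so it did not fall with Higd1b. Rai2 had 14.4, 7.79, 2.81 and 4.27, and Dact3 had 11.8, 5.61, 1.42 and 0.924. Kazald1 had 32.3, 32.0, 9.93 and 6.51, and Fads3 had 23.3, 19.1, 4.23 and 4.34. All these medians were higher in the Acta2-tdT than in the Pdgfra-tdT groups. For Hmox1 they were Lgmn and C1qc (1.38 each), Ctsa, Ctsb and Fam234a (1.5 each), where the median gene was at 4.5. Lgmn, Ctsa and Ctsb encode lysosomal proteases and C1qc a complement chain made by macrophages, and C1qc is 1 of the 12 macrophage markers. Of the other 9 genes, Sod2 (2.12) and Gpx1 (2.62) were nearest to Hmox1 and Nqo1 and Nox4 (5.38 and 4.88) were farthest from it. The ranks share library and depth, and are a description without a test.

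Reads of Prdx1, Sod1, Sod2 and, less closely, Nox4 may be shared with similar copies, so their levels are uncertain. In the GENCODE transcripts of GRCm38, 3 other genes matched Prdx1 at 90% identity or more over 300 bases or more (up to 98.4%), 1 matched Sod1 (97.8%), 2 matched Sod2 (99.3%) and 1 matched Nox4 (90.3%), and the other 6 genes had no such match. How the deposited FPKM split such reads was not tested. No exon of the 10 genes overlapped another gene.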

How the data were processed

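RNA of tdTomato-positive lung cells from 16 mice was amplified by SmartSeq2 and sequenced. Per the labels, alignment to the mouse genome (mm10, GRCm38) used TopHat2 2.1.1 with Bowtie2 2.2.9. The authors deposited FPKM per gene from Cufflinks 2.1.1, with its lower and upper bounds. SmartSeq2 has no molecular identifiers and an amplification step, so a low FPKM may rest on few molecules. Implied fragments were computed by taking each bound as 2 square roots of the fragment number away from the estimate. They describe precision and entered no test.

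FPKM of the 49534 rows were summed to 49452 Ensembl genes, and 15 genes with a failed Cufflinks status were left out. Scaled FPKM were computed by dividing by the sum over 21961 nuclear protein-coding genes. Tests used limma 3.58.1 (R 4.3.3; lmFit and eBayes with trend) on log2(value + 1), for genes that reached a deposited FPKM of 1 in 4 or more mice of the fit, with Benjamini-Hochberg adjustment over all genes tested. Nqo1, which reached this level in 1 group only, is not counted in the report among the calls of the 10 genes. The 4 comparisons used the 8 mice concerned and the interaction used all 16. Exact two-sided permutation tests over 70 labellings (smallest p 0.0286) were run on single genes. The fits were tested on simulated data. Groups and mouse numbers came from the sample labels, which do not say that same-numbered mice are paired. Each mouse is 1 library. Alternatives were another pseudocount, no filter, other scalings, all 16 mice in one fit, the replicate number as a block and leaving out each mouse. Copies were searched with BLAST 2.17.0 against GENCODE transcripts, and promoters were taken from RefSeq. Positions are those of the deposited tables.

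The 10 genes, the pathway lists and the marker lists were chosen with earlier results of these data known. From each pathway list the 3 other genes with the highest mean FPKM were named with values, plus Cybb, Nfe2l2 and Keap1. Tfrc and Gstm1, and genes named without values as those called, were chosen after their values were seen. Several genes stand in more than 1 list.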

Additional observations from a re-analysis of the deposited data

Results flagged for a closer look

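In 7 of 80 sets of 4 values (10 genes, 4 groups and 2 scales) 1 value lay far from the other 3 by Dixon's ratio of gap to range, where chance, at about 1 in 20, gives 4. They were 5 distinct pairs of gene and mouse, since Prdx1 and Sod1 stood apart on both scales. Pdgfra-tdT saline mouse 3 was high for Prdx1 (45.6 deposited FPKM and 745.6 scaled FPKM), Sod1 (36.82 deposited FPKM and 602 scaled FPKM) and Cat (7.322 deposited FPKM). The same mouse had an endothelial marker sum of 5989 scaled FPKM, where the other 3 Pdgfra-tdT saline mice had 147 to 353. It also had the highest protein-coding sum (61168) and the most implied fragments (1368580) of its group. The part of these cells and of depth in the 3 genes was not tested. Pdgfra-tdT saline mouse 2 was high for Nox4 (0.3861 deposited FPKM), and Pdgfra-tdT bleomycin mouse 5 was low for Nqo1 (0.04392 deposited FPKM, from 1 implied fragment as the approximation goes).

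The change with bleomycin differed between the lines in deposited FPKM, by the interaction term of limma, for Nox4 (1.604 on the log2 scale), Hmox1 (3.252), Sod2 (2.786) and Sod3 (3.178), each larger in Acta2-tdT cells. With a pseudocount of 0.1 those of Nox4 and Hmox1 were no longer called (limma adjusted p = 0.0695 and 0.102). Nqo1 had a difference of 2.331, a description only, since it reached an FPKM of 1 in Acta2-tdT bleomycin mice alone and so had to differ once it was tested. In scaled FPKM none of the differences of Nox4, Hmox1, Sod2 and Sod3 was called (limma adjusted p from 0.427 to 0.748).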

How the results depend on the processing

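The values are counts of all genes called and of the 10 genes (Nqo1 included, which passed the filter through Acta2-tdT bleomycin mice alone), or log2 changes, and except for the scalings, filters and fewer mice themselves the cause was not tested. For Acta2-tdT bleomycin against saline in deposited FPKM (10848 genes and 10 of the 10), scaling to the protein-coding sum left 6761 genes and 5 of the 10, with signs turned for Nox4 (-0.092), Gpx3 (-0.51), Taldo1 (-0.010) and Tfrc (-2.70), and the median ratio scaling left 6498 genes and 3 of the 10, with Nox4 at -0.35, Gpx3 at -0.89, Sod1 at -0.29, Gsr at -0.23, Fth1 at -0.34, Taldo1 at -0.39 and Tfrc at -1.99. A pseudocount of 0.1 turned Tfrc to -0.0095. In scaled FPKM (6761 and 5) no filter gave 19871 genes, the median ratio scaling left 2 of the 10 (Prdx1 and Sod2), with Sod1 at -0.29, Gsr at -0.27 and Fth1 at -0.34, and all 16 mice in one fit gave 4220 genes and 2 of the 10 (Hmox1 and Sod2). For Pdgfra-tdT bleomycin against saline (9 genes on either scale) no filter gave 2 in deposited FPKM, and all 16 mice in one fit gave 15 in deposited and 52 in scaled FPKM. The deposited signs of Gpx3 and Sod3 turned with a pseudocount of 0.1 (-0.22 and -0.29), the sum scaling (-0.86 and -1.02) and the median ratio scaling (-1.02 and -0.61). Without the 2 Pdgfra-tdT mice with the highest endothelial markers, an alternative chosen after seeing the data, 0 genes were called by limma on both scales, and Gpx3 was at -0.77.

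Between the lines with saline, in deposited FPKM (237 and 3), no filter gave 59 genes and 1 of the 10, the median ratio scaling 95 and 1, with Prdx1 at -0.051 and Cat at -0.36, and all 16 mice in one fit 126 and 1. In scaled FPKM (175 and 3) the median ratio scaling gave 33 genes and 0 of the 10, with Prdx1 at -0.046 and Cat at -0.58, and all 16 mice 278 genes. With bleomycin, in deposited FPKM (9553 and 10), the sum scaling gave 3573 and 2, and the median ratio scaling 3087 and 2, with Nox4 at -0.056, Prdx1 at -0.30, Sod1 at -0.38 and Cat at -0.53. In scaled FPKM (3573 and 2) the median ratio scaling gave Prdx1 at -0.30, Sod1 at -0.39 and Cat at -0.58, and all 16 mice called 4 of the 10. For the interaction in deposited FPKM (6605 and 5) a pseudocount of 0.1 gave 3463 and 3, with Nox4 (limma adjusted p = 0.0695) and Hmox1 (limma adjusted p = 0.102) lost. The sum scaling gave 1298 and 0, with Nox4 at -0.91, Gpx1 at -0.95, Prdx1 at -0.39, Sod1 at -1.28 and Cat at -0.12, and the median ratio scaling 150 and 0, with Nox4 at -0.50, Gpx1 at -0.91, Prdx1 at -0.36, Sod1 at -1.17 and Cat at -0.11. In scaled FPKM (1298 and 0) a pseudocount of 10 gave 350, no filter 444 and the median ratio scaling 82. Without the 2 mice with the highest endothelial markers 3845 genes were called in scaled FPKM, and in deposited FPKM Hmox1 was lost (limma adjusted p = 0.0549) and Gpx3 (3.22, limma adjusted p = 0.018) and Cat (2.14, limma adjusted p = 0.00157) were gained.

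Leaving out 1 mouse at a time gave 6973 to 10143 genes for Acta2-tdT bleomycin in deposited FPKM, 2 to 4 of the 10 in scaled FPKM, 0 to 69 and 1 to 37 genes for Pdgfra-tdT bleomycin in deposited and scaled FPKM, 14 to 2141 and 13 to 2803 genes between the lines with saline (0 to 5 of the 10 on each scale), 6111 to 9952 and 1701 to 5348 with bleomycin, and 3739 to 9166 (3 to 7 of the 10) and 76 to 3595 for the interaction. Signs turned within these ranges, in Acta2-tdT bleomycin against saline for Tfrc in deposited FPKM (-0.10 to 0.21) and in scaled FPKM for Nox4 (-0.26 to 0.034), Sod1 (-0.10 to 0.25), Gsr (-0.016 to 0.24), Fth1 (-0.26 to 0.29) and Taldo1 (-0.28 to 0.15). They turned in Pdgfra-tdT mice in deposited FPKM for Gpx3 (-0.72 to 0.54) and Sod3 (-0.071 to 0.47), and between the lines with saline for Cat (-0.22 to 0.14 deposited and -0.20 to 0.34 scaled), but Sod3 and Cat passed the filter in only 4 of these 8 runs each, so their ranges are partial and leave out, for Cat, the run without Pdgfra-tdT mouse 3. They turned between the lines with bleomycin in scaled FPKM for Prdx1 (-0.31 to 0.74), Sod1 (-0.26 to 0.85) and Cat (-0.41 to 0.49), and in the scaled interaction for Gpx3 (-0.082 to 0.90) and Cat (-0.90 to 0.28).

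The mice of the 2 lines share replicate numbers, but the labels do not pair them. Deviations from the group means of same-numbered mice correlated at -0.0539 to 0.121 with saline, where 3 of 8 mice correlated best with their own number, and at -0.296 to 0.0438 with bleomycin, where 1 of 8 did. With the number as a block, the lines with saline gave 36 genes and 1 of the 10 in deposited FPKM and 22 and 1 in scaled FPKM, and with bleomycin 9379 and 9, and 2696 and 2. Among the genes named, the block ended the saline calls of Gpx1 and Sod3 on both scales and of Ncf4 and Fth1 in scaled FPKM, and the deposited call of Prdx1 with bleomycin (limma adjusted p = 0.0513), and it changed no other call. Depth limits the low genes, above all Nox4 and Nqo1 in Pdgfra-tdT mice.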
